A study of Mus musculus with 6 samples.

Results

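A group of 9 genes of the Hedgehog pathway were followed in embryonic mouse pancreas: the ligand genes Shh, Ihh and Dhh, the receptor genes Ptch1 and Smo, the ligand-binding inhibitor gene Hhip, and the transcription factor genes Gli1, Gli2 and Gli3. The members were the rows of the count tables that carry these symbols, and all 9 of 9 were found among 23337 genes. Pancreas was dissected at E13.5 from NMRI embryos labelled Prox1-nullyzygous, with the alleles written Prox1 GFPCre/D, and from wildtype NMRI embryos, here called mutant and control. The product of Prox1 is a homeobox transcription factor found in pancreatic progenitor cells. What the 2 mutant alleles remove, and what the letter D stands for, is not in the labels. Each of 3 mutant and 3 control libraries came from its own pool of 5 to 6 pancreata of 1 genotype, so every value is a mean over embryos and over cell types.

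A Hedgehog ligand acts by binding the receptor Patched 1 (Ptch1), which otherwise keeps Smoothened (Smo) inactive. Active Smoothened lets Gli2 and Gli3 work as transcriptional activators, whereas without ligand Gli3 in particular is cut into a repressor. Gli1, Ptch1 and Hhip are themselves targets of the pathway and are widely used as readouts: Gli1 is an activator, while the products of Ptch1 and Hhip restrain the signal. In the early foregut, Shh is transcribed in the endoderm of the neighbouring stomach and duodenum and is kept out of the pancreatic bud, and the surrounding mesenchyme is the main responding tissue.

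The libraries held 16060424 to 17633867 counted reads, and 1 CPM (the unit of library-scaled counts, with TMM factors) stood for 15.9 to 17.5 reads. Mutant pool 1 and control pool 3 were almost free of Xist, at 0.126 CPM and 0.526 CPM, against 2014 to 2812 CPM in the other pools. Prox1 itself was counted at 1330, 1774 and 1602 reads in mutant pools and 1764, 1687 and 1824 reads in control pools, so the groups overlapped and the gene count did not check the genotype labels. Control pool 2 stood apart from the other 5 pools in some genes of foregut and smooth muscle, but not in all. It held 5.72 CPM of Sox2, a foregut transcription factor gene, against 0.353 to 0.566 CPM in mutant pools and 0.716 and 0.701 CPM in control pools 1 and 3. It also held 73.6 CPM of Myh11, a smooth muscle myosin gene, against 2.17 to 6.54 CPM in mutant pools and 4.36 and 2.16 CPM in the other control pools. Des, another smooth muscle gene, had 64.6 CPM in control pool 2, between the values of control pools 1 and 3. Barx1, a stomach gene, had 69.6 CPM in control pool 2, below every mutant pool. Results below are therefore given with and without control pool 2.

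The readout genes Ptch1 and Hhip and the factor gene Gli3 have entries in the RefSeq promoter table, and their windows are shown because the results below set these genes beside Gli1. Of the 9 members, 7 matched that table. Each window runs from 250 bases before to 50 bases after 1 annotated start and is written 5′ to 3′ on the gene's strand (GRCm38.p6). Capitals mark the letters CCACCC or their reverse complement GGGTGG, the core of the Gli-binding consensus GACCACCCA.
Ptch1 promoter, chr13:63565686-63565985, minus strand: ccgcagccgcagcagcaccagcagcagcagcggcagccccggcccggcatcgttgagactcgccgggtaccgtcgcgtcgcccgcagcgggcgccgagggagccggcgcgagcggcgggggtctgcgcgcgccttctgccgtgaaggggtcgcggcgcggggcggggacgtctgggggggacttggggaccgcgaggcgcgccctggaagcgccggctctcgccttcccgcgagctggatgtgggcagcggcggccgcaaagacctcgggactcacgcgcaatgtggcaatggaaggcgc
Hhip promoter, chr8:80057959-80058258, minus strand: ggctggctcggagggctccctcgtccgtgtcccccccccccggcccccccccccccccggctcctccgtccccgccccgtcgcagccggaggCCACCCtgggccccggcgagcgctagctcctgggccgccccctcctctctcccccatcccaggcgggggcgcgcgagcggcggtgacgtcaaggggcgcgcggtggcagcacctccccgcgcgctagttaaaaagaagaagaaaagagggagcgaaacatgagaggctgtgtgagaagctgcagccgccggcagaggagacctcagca
Gli3 promoter, chr13:15463473-15463772, plus strand: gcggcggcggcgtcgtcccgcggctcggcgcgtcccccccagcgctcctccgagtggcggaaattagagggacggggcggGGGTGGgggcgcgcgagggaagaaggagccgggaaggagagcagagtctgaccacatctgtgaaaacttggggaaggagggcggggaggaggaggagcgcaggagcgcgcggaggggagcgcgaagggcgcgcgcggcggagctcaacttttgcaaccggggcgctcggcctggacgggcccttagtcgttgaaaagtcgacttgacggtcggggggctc

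The 9-letter consensus, searched on both strands, was in none of the 7 members' windows exactly or with 1 mismatch. Among 32841 promoter windows of the same length, 0.253% held it exactly and 6.74% held it with at most 1 mismatch. The 6-letter core lies inside the consensus and was found once in the Hhip window, 158 bases before the start, once in the Gli3 window, 170 bases before the start, and not in the Ptch1 window. The core was also in the windows of Ihh, Dhh, Smo and Gli2. It was present in 31.5% of all windows. These matches describe letters in the window and not binding. The Ptch1 and Gli3 windows belong to starts that lie inside the longer gene models used for positions below, and other starts were not searched.

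Among the 7 members that could be tested, Gli1 differed most between genotypes, at 3.29 times the control level in mutant pancreas, and Gli3 was higher by 1.30 times. Ptch1 and Hhip, the other readouts, differed by less than the spread between pools, as did Smo and Gli2. Of the 9 members, 7 passed the filter on low counts, while Shh and Ihh were too scarce to test. Among these 7, edgeR's quasi-likelihood test called 2 higher in mutants, where 3.67% of the 14687 tested genes were called higher, and called 0 lower, where 4.28% of all tested genes were called lower. A call means a Benjamini-Hochberg adjusted p under 0.05 over all tested genes, and 7.95% of genes were called in either direction. No member was lower at an unadjusted p under 0.05, where 1503 of all tested genes were, and DESeq2 and limma voom also called 0 members lower. The 3 mutant and 3 control values did not overlap for 2 of the 7 tested members and for 26.4% of all tested genes. In these bulk samples, fewer cells of a type and less RNA per cell cannot be told apart.

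**Figure D1:**
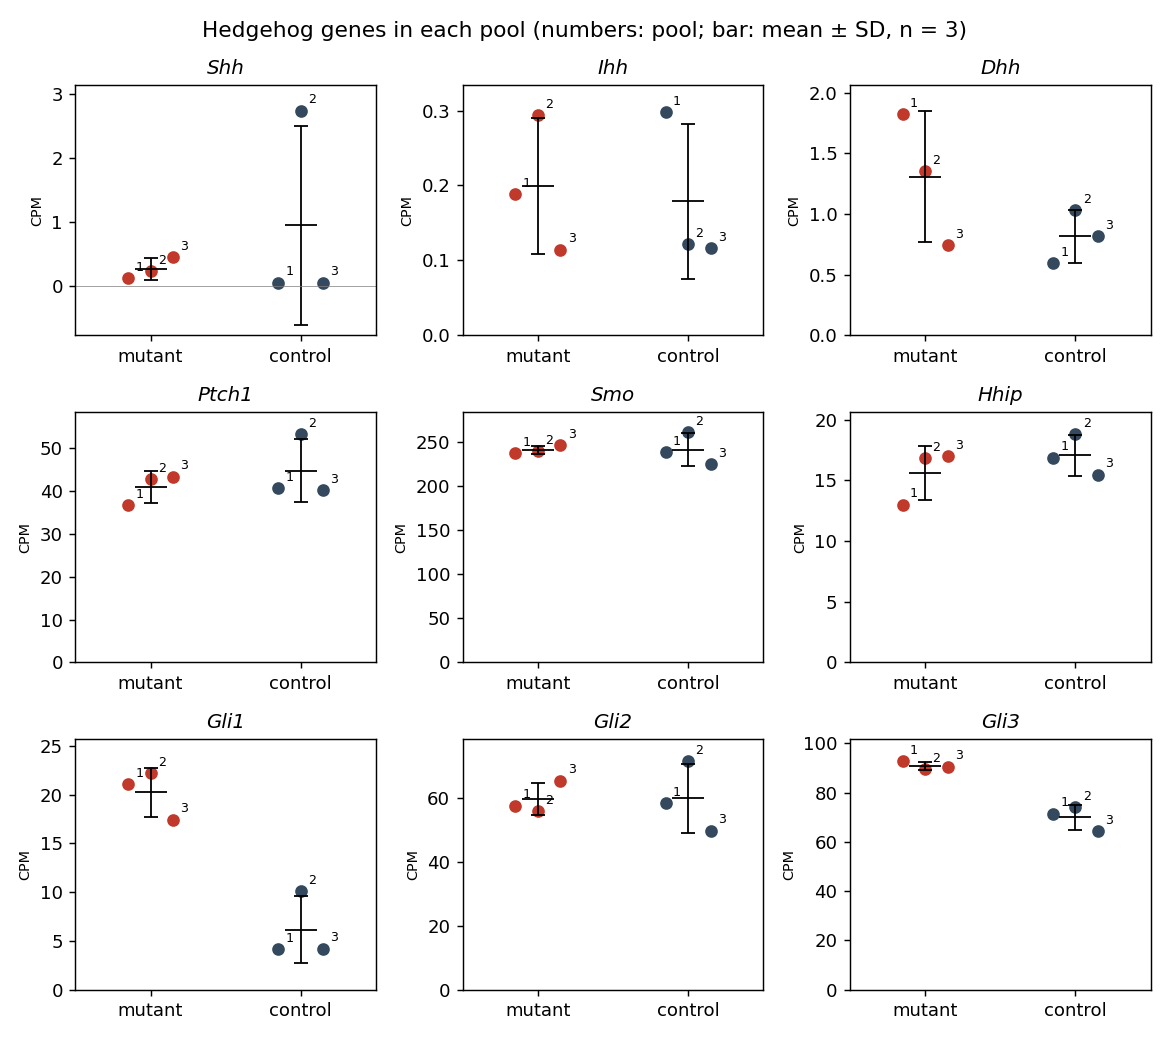
Level of each Hedgehog gene in CPM (vertical axes, each panel on its own scale) in the 3 mutant and 3 control pools. Points are pools with their numbers, and bars are mean ± SD (n = 3); Gli1 and Gli3 show mutant pools all above control pools, and Shh shows control pool 2 alone at 2.74 CPM.

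The ligand genes were close to the detection limit. Gene positions here and below are those of build GRCm38 in GENCODE M21. Shh, the ligand of stomach and gut endoderm (chromosome 5, 28456815 to 28467256, minus strand), had 2, 4 and 8 reads in mutant pools and 1, 45 and 1 reads in control pools. Control pool 2 alone exceeded the other pools, and the exact 95% Poisson interval of its 45 reads ran from 32.8 to 60.2, against 3.45 to 15.8 for the next highest count. Without that pool, each mutant pool had more Shh reads than each control pool, but the counts summed to 14 reads in 3 mutant pools and 2 reads in 2 control pools. An antisense gene in the count tables, 9530036O11Rik, shares 446 of the 2847 exon bases of Shh and had 3, 1 and 2 reads in mutant pools and 0, 0 and 1 reads in control pools.

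Ihh, the Indian hedgehog gene of gut endoderm and cartilage (chromosome 1, 74945315 to 74951672, minus strand), had 3, 5 and 2 reads in mutant pools and 5, 2 and 2 reads in control pools. These counts overlapped fully and allow no statement on a difference. Dhh, the Desert hedgehog gene known from Schwann cells, endothelium and Sertoli cells (chromosome 15, 98891152 to 98898540, minus strand), had 29, 23 and 13 reads in mutant pools and 10, 17 and 14 reads in control pools. Mutant pools 1 and 2 were above all control pools and mutant pool 3 lay within the control range. Dhh had a log2 fold change of 0.67 (SE 0.38, 95% interval -0.19 to 1.53, edgeR adjusted p = 0.376) and was not called. Dhh shares 546 of its 4399 exon bases with Rhebl1 on the same strand, which had 46, 67 and 69 reads in mutant pools and 33, 62 and 67 reads in control pools.

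Markers of the cells known to make Dhh did not all move its way. Of 8 Schwann cell and neural crest markers, 2 were called lower, Sox10 among them, and 0 higher, and their summed level was 108.5 to 125.9 CPM in mutant pools against 127.1 to 141.3 CPM in control pools. Among all tested genes, 4.28% were called lower. Most of the sum was Erbb3, at 81.1, 99.9 and 82.2 CPM in mutant pools and 83.95, 92.5 and 91.3 CPM in control pools. Its log2 fold change was -0.02. With mutant pool 2 left out, Sox10 was no longer called (edgeR adjusted p = 0.062). Of 5 endothelial markers, edgeR called 0, with 3 higher at an unadjusted p under 0.05 and 0 calls by DESeq2 or voom. At that unadjusted threshold in edgeR, 1601 of all 14687 tested genes were higher and 1503 lower. The summed level of the endothelial markers was 563.2 to 730.0 CPM in mutant pools and 502.3 to 574.2 CPM in control pools. It was highest in mutant pool 1, where Dhh was also highest, but other pools did not follow that order. Control pool 1 had the highest control sum, 574.2 CPM, and the lowest Dhh of all pools, 0.597 CPM. Mutant pool 3 had a higher sum than mutant pool 2, 599.2 against 563.2 CPM, and less Dhh, 0.743 against 1.35 CPM. The part of these cells in the Dhh values was not tested.

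Among the receptors, Smo, encoding the membrane protein that passes the signal on (chromosome 6, 29735503 to 29761365, plus strand), was the most abundant member. It stood at 236.9, 239.9 and 246.0 CPM in mutant pools and 238.4, 260.8 and 224.6 CPM in control pools. The groups overlapped with the mutant pools inside the control range, and the 95% interval of the fold ran from 0.916 to 1.09 (edgeR adjusted p = 0.993). Ptch1, encoding the ligand receptor (chromosome 13, 63508328 to 63573598, minus strand), stood at 36.8, 42.9 and 43.4 CPM in mutant pools and 40.8, 53.3 and 40.3 CPM in control pools. Control pool 2 was again the highest pool and the other 5 were intermixed. The log2 fold change of Ptch1 was -0.13 (SE 0.12, 95% interval -0.39 to 0.14, edgeR adjusted p = 0.617), and without control pool 2 it was 0.01 (SE 0.082, interval -0.17 to 0.20).

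Hhip, encoding a cell-surface protein that binds and sequesters ligands (chromosome 8, 79965851 to 80058006, minus strand), had 13.01, 16.8 and 17.0 CPM in mutant pools and 16.9, 18.8 and 15.5 CPM in control pools. The lowest value was mutant pool 1 and the highest control pool 2, with overlap between the groups. Its log2 fold change was -0.13 (SE 0.12, 95% interval -0.41 to 0.16, edgeR adjusted p = 0.645), and -0.05 without control pool 2. The intervals of Ptch1 and Hhip include modest differences in either direction.

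Gli1, encoding the activator whose own transcription is a standard readout of the pathway, occupies bases 127329882 to 127341974 of chromosome 10 (minus strand). It had 336, 378 and 305 reads in mutant pools and 70, 166 and 72 reads in control pools, which is 21.1, 22.3 and 17.4 CPM against 4.18, 10.1 and 4.21 CPM. Every mutant pool was above every control pool, and control pool 2 lay well above the other 2 controls. The means were 20.3 ± 2.52 CPM in mutants and 6.16 ± 3.41 CPM in controls (SD, n = 3 each). The log2 fold change was 1.72 (SE 0.30, 95% interval 1.05 to 2.39, edgeR adjusted p = 0.00897), a fold of 3.29 with an interval of 2.07 to 5.24, and it ranked 90th from the top among the 14687 tested genes.

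Without control pool 2, the log2 fold change of Gli1 was 2.27 (SE 0.15, 95% interval 1.93 to 2.60, edgeR adjusted p = 8.44e-05), a fold of 4.81. Over the 16 alternative settings it ranged between 1.47 and 2.27, and it was called in all 16, with adjusted p between 8.44e-05 and 0.0386. A pair of genes on the opposite strand overlap Gli1, and the strand setting of the counting is not given in the sources used here. Arhgap9, which shares 62 of the 4995 exon bases, had 51, 55 and 54 reads in mutant pools and 45, 37 and 30 reads in control pools, fewer than Gli1 in each pool. Gm47200 shares 265 bases and was not counted under that symbol.

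**Figure D2:**
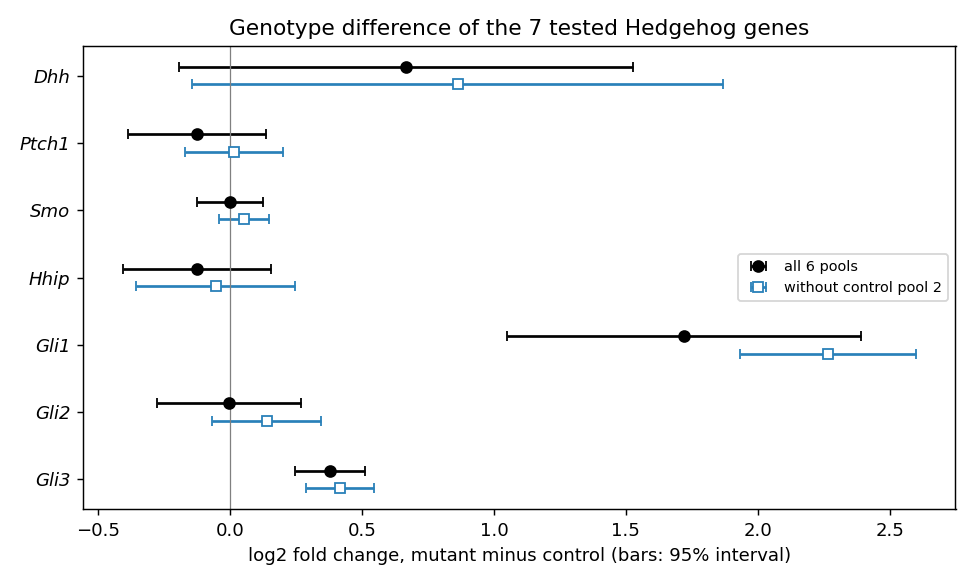
Log2 fold change, mutant minus control, of the 7 tested Hedgehog genes (horizontal axis) with 95% intervals, from all 6 pools (filled circles) and without control pool 2 (open squares). The intervals of Gli1 and Gli3 lie above 0 in both fits, while those of Dhh, Ptch1, Smo, Hhip and Gli2 include 0.

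Gli2, encoding the main activator of the family (chromosome 1, 118834132 to 119053619, minus strand), had 57.8, 56.0 and 65.6 CPM in mutant pools and 58.5, 71.6 and 49.9 CPM in control pools. All mutant values lay inside the control range, and the 95% interval of the fold was 0.825 to 1.21 (edgeR adjusted p = 0.992). Gli3, encoding the family's main repressor (chromosome 13, 15463235 to 15730026, plus strand), had 92.7, 89.5 and 90.6 CPM in mutant pools and 71.4, 74.1 and 64.4 CPM in control pools. The groups did not overlap, and the mutant pools differed among themselves by less than the control pools. The log2 fold change of Gli3 was 0.38 (SE 0.059, 95% interval 0.24 to 0.51, edgeR adjusted p = 0.0056), and it was called in all 16 alternative settings, at 0.30 to 0.42. Transcript counts do not separate the full-length from the cut form of the protein.

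The makeup of the Gli family differed between the groups. Expressed per kb of exon, Gli1 made up 19.0%, 20.3% and 15.5% of the summed level of the 3 Gli genes in mutant pools and 4.98%, 10.03% and 5.68% in control pools. The Gli2 share was 37.7%, 37.2% and 42.5% in mutant pools against 50.7%, 51.7% and 49.0% in control pools, and the Gli3 share was 42.0% to 43.3% in mutant pools and 38.3% to 45.3% in control pools. The shares of Gli1 and Gli2 did not overlap between the groups, and the shares of Gli3 did. Shares of a sum are tied together, so a higher Gli1 level lowers the Gli2 share even where the Gli2 level is unchanged. By level, Gli2 overlapped between the groups, at a fold of 0.997, and Gli3 was called higher, as above.

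**Figure D3:**
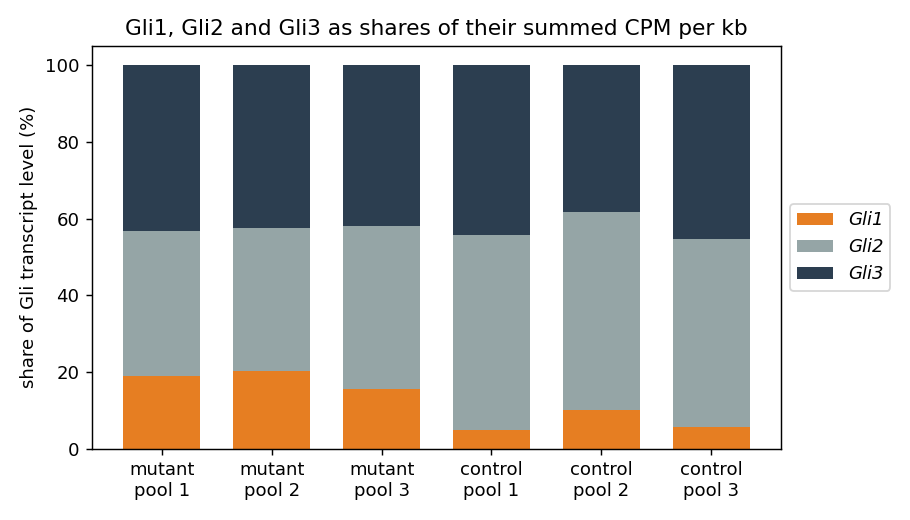
Gli1, Gli2 and Gli3 as percent of their summed CPM per kb of exon (vertical axis) in each pool. The Gli1 segment is 15.5% to 20.3% in mutant pools and 4.98% to 10.03% in control pools.

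Ratios within a library, which do not depend on scaling between libraries, set the 3 readouts against each other. The log2 ratio of Gli1 to Ptch1 reads was -0.80, -0.95 and -1.31 in mutant pools and -3.28, -2.40 and -3.25 in control pools. It was higher in each mutant pool than in each control pool, by 1.96 on average. The log2 ratio of Gli1 to Hhip reads was 0.70, 0.40 and 0.04 in mutant pools and -2.01, -0.89 and -1.87 in control pools, a mean difference of 1.97, again without overlap. The exact two-sided permutation test gave p = 0.1 for each of these 2 ratios, the smallest that 3 against 3 pools allow, and an adjusted p of 0.15 over the 3 ratios computed. The ratio of Ptch1 to Hhip averaged 1.40 ± 0.084 in mutants and 1.38 ± 0.12 in controls (SD, n = 3 each) with an exact permutation p of 1 (adjusted 1), and its difference of 0.02 had no stable sign when single pools were left out.

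Ordered by mean CPM per kb of exon, mutant pools held Smo at 42.9, Gli3 at 9.48, Gli2 at 8.70, Gli1 at 4.06, Ptch1 at 2.89, Hhip at 1.72, Dhh at 0.297, Shh at 0.0958 and Ihh at 0.0653. Of neighbours in this order, Gli3 and Gli2 overlapped in their pool values, as did Shh and Ihh. Control pools held Smo at 42.9, Gli2 at 8.73, Gli3 at 7.30, Ptch1 at 3.16, Hhip at 1.88, Gli1 at 1.23, Shh at 0.335, Dhh at 0.186 and Ihh at 0.0587. There Gli2 overlapped with Gli3, Hhip with Gli1, Gli1 with Shh, and Shh with Dhh, the overlaps of Shh resting on control pool 2. Gli1 thus stood above Ptch1 in mutant pools and below it in control pools on the per-length scale. That order depends on the lengths used, 4.995 kb of exon for Gli1 and 14.185 kb for Ptch1, each the union of all annotated exons. A shorter length would raise the Ptch1 value. In CPM, Gli1 was below Ptch1 in every pool, with means of 20.3 against 41.0 in mutants and 6.16 against 44.8 in controls.

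Mesenchyme and epithelium markers were set beside these results because the responding and ligand-making cells differ. Over all tested genes, 3.67% were called higher and 4.28% lower, as above. Of 9 pancreatic mesenchyme markers, 1 was called higher (Col1a1, log2 fold change 0.31) and 0 lower, none was at 0, and their summed level was 9797 to 11169 CPM in mutant pools against 8788 to 9054 CPM in control pools. The Col1a1 call was lost without mutant pool 1 or 2 or control pool 1 or 3, at edgeR adjusted p between 0.059 and 0.103. The mesenchymal receptor genes Pdgfra and Pdgfrb were not called, at log2 fold changes of 0.10 and 0.17. Of the 9 markers, 7 had positive and 2 had negative log2 fold changes. The negative ones, Twist1 at -0.55 (edgeR adjusted p = 0.126) and Nkx3-2 at -0.18 (0.557), were not called. For Twist1 every mutant pool was below every control pool. Most of the sum came from Col1a1, Col1a2 and Col3a1, which averaged 2244, 2437 and 4171 CPM in mutants. DESeq2 called 4 of the 9 higher, namely Col1a1, Col1a2 (adjusted p = 0.00465), Col3a1 (0.00134) and Pdgfrb (0.0455), and voom called 2, Col1a1 and Col1a2 (0.0458). In edgeR, Pdgfrb was called higher without control pool 2 (adjusted p = 0.0357), and Col3a1 (0.0358) and Dcn (0.0138) were called higher without mutant pool 3. Of 8 epithelial markers, 2 were called lower (Cdh1 and Nkx6-1) and 0 higher, with sums of 2730 to 3404 CPM in mutant pools and 2349 to 3335 CPM in control pools. The log2 fold changes of 6 were negative and of 2 positive. Cpa1, 1 of the positive ones, was the largest part of the sum in every pool. It held 1816, 1989 and 1420 CPM in mutant pools and 1378, 885 and 1543 CPM in control pools. Cpa1 was not called, at 0.46 (edgeR adjusted p = 0.210). The Nkx6-1 call was lost without mutant pool 1, 2 or 3 or control pool 3, at adjusted p between 0.0529 and 0.116. Without control pool 2, Epcam (edgeR adjusted p = 0.0167) and Krt8 (0.0372) were also called lower, and without control pool 3 Krt18 (0.0368) was called higher. DESeq2 also called Sox9 lower (adjusted p = 0.0177). Of 5 endocrine markers, 4 were called lower, with sums of 1035 to 1100 CPM against 1557 to 2029 CPM. Neurod1 among them was not called without mutant pool 2 or 3 or control pool 1, at adjusted p between 0.0537 and 0.0574. Chga, the marker not called, was called lower without control pool 2 (edgeR adjusted p = 0.00726). The part of cell makeup in the Gli1 and Gli3 values was not tested.

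Some genes of gut and smooth muscle, chosen for display after their values were seen, were high together with Shh in control pool 2, and others of the same lists were not. Foxl1, Foxf2 and Foxf1a encode forkhead factors of gut mesenchyme that are reported as Hedgehog targets, and the first 2 were picked out after their values were seen. Foxl1 had 11, 4 and 7 reads in mutant pools and 0, 58 and 3 reads in control pools. Foxf2 had 6, 7 and 5 reads in mutant pools and 2, 50 and 2 reads in control pools. Both were too scarce to test, and for both each mutant pool lay above control pools 1 and 3 and below control pool 2.

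Foxf1a had 86, 50 and 79 reads in mutant pools and 44, 152 and 51 reads in control pools, with a log2 fold change of -0.21 (SE 0.46, edgeR adjusted p = 0.868), against 0.61 (SE 0.27, adjusted p = 0.230) without control pool 2. Of 5 smooth muscle markers, edgeR, DESeq2 and voom called 0, with 1 higher and 1 lower at an unadjusted p under 0.05 in edgeR, and DESeq2 gave no adjusted p for Myh11 and Cnn1. That unadjusted threshold was passed by 1601 higher and 1503 lower genes among all 14687 tested. Without control pool 2, Acta2 was called higher, at a log2 fold change of 1.03 (edgeR adjusted p = 0.0143), against 0.0054 with it. The list's summed level was 131.3 to 156.5 CPM in mutant pools, 264.1 CPM in control pool 2 and 104.1 and 105.5 CPM in control pools 1 and 3. Des, encoding desmin, had 64.6 CPM in control pool 2, between the 62.7 and 68.5 CPM of control pools 1 and 3, and Tagln had 21.6 CPM there, below the 25.1 CPM of mutant pool 1. Of 9 stomach and intestine markers, 6 were too scarce to test and 2 of these, Muc5ac and Gkn1, were at 0 in every pool. Cdx2, Tff2 and Fabp2 were at 0 in control pool 2 and had at most 4 reads in any other pool. Most of that list's sum was Barx1, which stood at 71.8 to 90.3 CPM in mutant pools and 56.7 to 69.6 CPM in control pools, control pool 2 being the highest control and below every mutant pool. Barx1 was called higher (edgeR adjusted p = 0.0472). That call was lost with total-count scaling (0.0583) and without mutant pool 2 or 3 or control pool 1 or 3, at 0.110 to 0.158. Neither of 2 spleen markers was called by edgeR, DESeq2 or voom, nor at an unadjusted p under 0.05. The part of gut tissue in the values of control pool 2 was not tested.

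**Figure D4:**
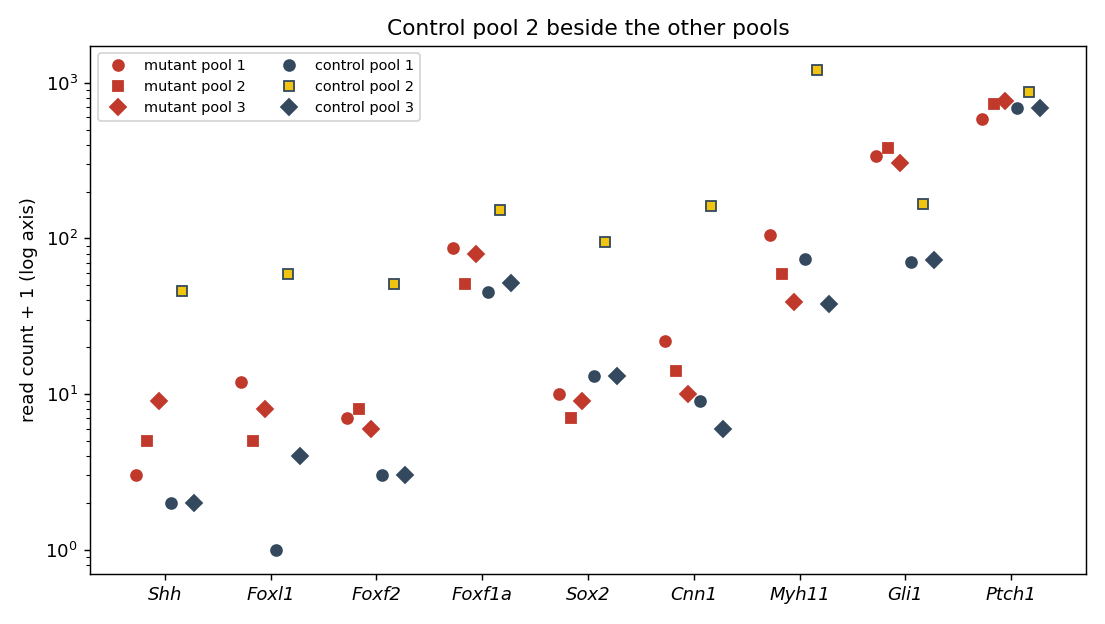
Read count plus 1 (log axis) of Shh, 3 forkhead genes, Sox2, smooth muscle genes Cnn1 and Myh11, and the readouts Gli1 and Ptch1 in each pool. Control pool 2 (yellow squares) is the highest pool for Shh, Foxl1, Foxf2, Foxf1a, Sox2, Cnn1, Myh11 and Ptch1, while for Gli1 it lies between the mutant pools and the other control pools.

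The rest of the pathway was described over 45 further genes, of which 43 passed the filter. Of these, 5 were called higher and 1 lower in mutants, with 37 not called. DESeq2 called 7 of them higher and 1 lower, against 656 higher and 614 lower among all 14687 genes tested in edgeR. The shares called over all tested genes were 3.67% higher and 4.28% lower, as above. The median log2 fold change was 0.07 over these 43 genes and 0.00055 over all tested genes, and 17 of the 43 did not overlap between groups, against 26.4% of all tested genes. Without control pool 2, 9 of the pathway genes were called higher, where 4.69% of all genes were called higher in that fit, and 1 was called lower, where 4.88% were. The number called higher was 3 without mutant pool 2, without mutant pool 3, without control pool 1 or without control pool 3.

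Genes for making and releasing ligands included the 1 lower call. Disp2, a relative of the ligand-release transporter gene Disp1, had 15.6, 18.02 and 16.1 CPM in mutant pools and 37.1, 38.3 and 39.8 CPM in control pools. The groups were far apart, and the log2 fold change was -1.21 (SE 0.075, edgeR adjusted p = 7.09e-05). Disp1 itself was not called, at 0.04 (SE 0.069), and neither was Hhat, encoding the enzyme that attaches palmitate to the ligands, at -0.09 (SE 0.11). Scube3, encoding a secreted protein of a family that helps ligands leave the cell, had 48.1, 61.6 and 62.4 CPM in mutant pools and 34.9, 49.7 and 34.7 CPM in control pools. It was not called (edgeR adjusted p = 0.0673), and was called with DESeq2, without mutant pool 1 and without control pool 2 (0.00566). Scube1 of the same family went the other way, at -0.40 (SE 0.17, edgeR adjusted p = 0.222), and at -0.18 without control pool 2. Neither Scube1 nor Scube2, at 0.33 (SE 0.20), was called.

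All 6 receptor and co-receptor genes at the cell surface had positive log2 fold changes, and 2 of them were called higher. Among all 14687 tested genes, 7373 had positive log2 fold changes and 3.67% were called higher. The co-receptor genes Boc, Cdon and Gas1, whose products present ligand to Patched, were not called, at 0.31 (SE 0.089), 0.13 (SE 0.076) and 0.14 (SE 0.047). DESeq2 called Boc higher (adjusted p = 0.0143). Without control pool 2, edgeR called Boc (adjusted p = 0.0273) and Gas1 (0.034) higher and did not call Cdon (0.590).

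Gpc3, encoding a glypican that binds Hedgehog ligands, averaged 1200 ± 55.2 CPM in mutants and 1012 ± 49.1 CPM in controls (SD, n = 3 each). It was called higher at a log2 fold change of 0.25 (SE 0.056, edgeR adjusted p = 0.0289), and the call was lost without mutant pool 2 or 3 or control pool 1 or 3, at 0.0776 to 0.132. Lrp2, encoding the endocytic receptor megalin, averaged 25.2 ± 2.05 CPM in mutants and 18.3 ± 2.62 CPM in controls and was called higher at 0.46 (SE 0.11, edgeR adjusted p = 0.0391). Among single pools left out, that call held only without control pool 2 and was lost at 0.0627 to 0.122 without the others.

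Signal relay genes between Smoothened and the Gli proteins showed no called difference. Of 16 tested, edgeR, DESeq2 and voom each called 0, with 1 higher and 0 lower at an unadjusted p under 0.05. Over all 14687 tested genes, that unadjusted threshold gave 1601 higher and 1503 lower. Log2 fold changes of the 16 relay genes ran from -0.25 to 0.18. Sufu, encoding the cytoplasmic inhibitor that holds Gli proteins, had 43.1, 41.3 and 51.4 CPM in mutant pools and 42.0, 47.4 and 40.3 CPM in control pools, at 0.07 (SE 0.095). The primary cilium is the organelle in which the signal is relayed. Of 6 genes for transport in it, 1 was called higher, where 3.67% of all tested genes were. That gene, the kinesin motor gene Kif3a, averaged 106.7 ± 3.34 CPM in mutants and 84.1 ± 2.06 CPM in controls (SD, n = 3 each), at 0.34 (SE 0.045, edgeR adjusted p = 0.00277).

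Reported target genes other than the members were called in part. Of 11 listed, 9 were tested and 2 were called higher, where 3.67% of all tested genes were called higher. Sfrp1, encoding a secreted inhibitor of Wnt signals, had 767.2, 885.0 and 923.9 CPM in mutant pools and 511.8, 607.2 and 488.2 CPM in control pools. Every mutant pool was above every control pool, and the log2 fold change was 0.68 (SE 0.094, edgeR adjusted p = 0.00328). Ccnd2, encoding the G1 phase cyclin D2, averaged 748.7 ± 13.9 CPM in mutants and 539.2 ± 8.76 CPM in controls (SD, n = 3 each), at 0.47 (SE 0.042, edgeR adjusted p = 0.00045). Its relative Ccnd1 was not called, at 0.06 (SE 0.074), nor were Bmp4 at 0.37 (SE 0.17), Mycn at 0.07 (SE 0.10) or Osr1 at 0.16 (SE 0.048). The calls of Sfrp1, Ccnd2, Kif3a and Disp2 held in all 16 alternative settings.

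**Figure D5:**
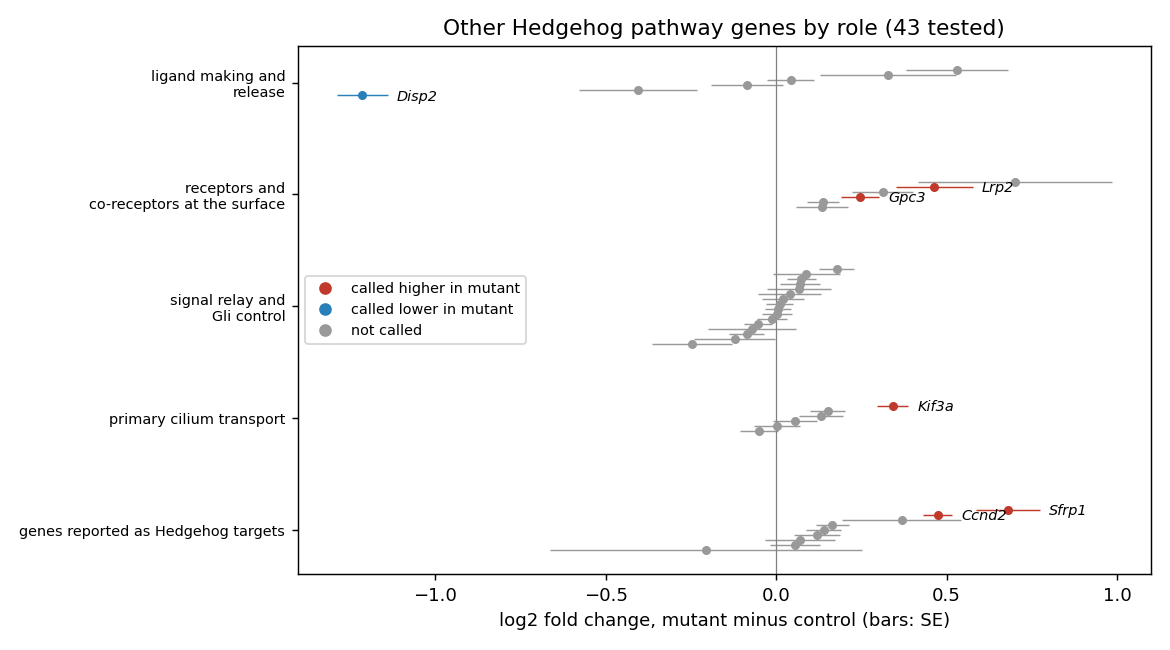
Log2 fold change, mutant minus control (horizontal axis, bars are SE), of the 43 tested pathway genes other than the members, in rows by role. Called genes are coloured and named: Disp2 lies at -1.21, and Gpc3, Kif3a, Lrp2, Ccnd2 and Sfrp1 lie between 0.25 and 0.68.

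The genes whose levels ran most like each readout over the 6 libraries were found among 12252 genes by Pearson's r of log2 CPM, as a description only. The libraries share the genotype contrast and the position of control pool 2, so such values come readily from a search of this size. For Gli1 they were Igfbp2 (r = 0.994), Inhbb (0.994) and Lmcd1 (0.989). Igfbp2, encoding an insulin-like growth factor binding protein, had 110.9, 112.8 and 106.8 CPM in mutant pools and 60.4, 78.7 and 56.7 CPM in control pools. Like Gli1, it was higher in each mutant pool than in any control pool and highest among controls in pool 2. For Ptch1 they were Aass (0.997), Gramd1a (0.994) and Ptprt (0.993), and for Hhip Neurl1a (0.997) and Frat2 (0.992).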

How the data were processed

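Messenger RNA libraries of 6 pools of mouse pancreas were sequenced, 3 mutant and 3 control, grouped by the sample titles. The authors deposited whole-number read counts per gene, not normalized. Per the submitters' processing notes, cutadapt 1.13, STAR, HTSeq 0.6.1p1 and DESeq2 were used with build mm10, with no role or order given. Annotation, strand setting and the handling of reads with several positions: not given in the sources used here. Reads of overlapping genes and near-identical copies are uncertain. The labels' protocol and the series' design text name different RNA extraction methods.

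Counts were analysed with edgeR 4.0.16 in R 4.3.3: filterByExpr with minimum count 10, TMM scaling and a quasi-likelihood F test of genotype, adjusted by Benjamini-Hochberg over 14687 genes. Standard errors came from the coefficient and its F statistic (|coefficient| over root F), and 95% intervals used the t distribution with the fit's degrees of freedom. CPM per kb used the union of exons in GENCODE M21 (GRCm38). Ratios within a library added 0.5 to each count. Poisson intervals cover counting error only. Alternatives were other scalings and filters, DESeq2 1.42.0, limma 3.58.1 voom, robust estimation, the replicate number as a block, each library left out, and both pools with almost no Xist counts (control 3 and mutant 1) left out. On simulated counts for mutant against control (14582 genes), edgeR called 66.2%, 88.5% and 100% of genes changed by 0.5, 1 and 2 log2, and 11 unchanged genes.

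The members, the pathway list, the marker lists (epithelium, mesenchyme, endocrine, stomach and intestine, spleen, Schwann cell and neural crest, endothelium, smooth muscle) and the tests were chosen with earlier results of these data known. Named genes were all members, called pathway genes, Sufu, Boc, Cdon, Gas1, Foxf1a, and for each of 3 readouts the 3 genes of highest correlation at mean log2 CPM of 1 or more. Other genes were named after their values were seen, and a few results under this rule are not reported here. Markers of mesothelium (1 of 4 tested called higher, 0 lower) and of gonad and adrenal (1 of 4 called higher, 0 lower) were also listed. No 2 libraries agreed within sampling noise, with chi-square per degree of freedom of 3.58 to 18.3.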

Additional observations from a re-analysis of the deposited data

How the results depend on the processing

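The members' calls, 2 higher and 0 lower, were the same in count under all 16 alternatives, and Gli1 and Gli3 were the called members in each. With libraries left out singly, pathway genes called higher numbered 3 to 9 and all genes called 629 to 1421 (5 and 1167 with all pools). All genes called fell to 665 without both pools with almost no Xist counts. The difference in log2 ratio was 1.80 to 2.24 for Gli1 to Ptch1, 1.76 to 2.32 for Gli1 to Hhip and -0.041 to 0.075 for Ptch1 to Hhip, below 0 without mutant pool 1 or control pool 1. The scalings leave such ratios the same by construction.

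Log2 fold changes near 0 changed sign, and the cause was not tested. Smo, at -0.0016, was 0.0027 without a filter, 0.0013 with voom and 0.00070 with the replicate block. It ran from -0.054 to 0.053 with pools left out singly and was above 0 without mutant pool 1, mutant pool 2 or control pool 2. Gli2, at -0.0037, was 0.00080 without a filter, 0.011 with voom and 0.0059 with the replicate block. It ran from -0.12 to 0.14 and was above 0 without the same pools. Ptch1, at -0.13, ran from -0.20 to 0.014 and was above 0 without control pool 2 only.

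Replicate numbers were not taken to pair the pools: deviations of mutant and control pools of the same number correlated at 0.14, 0.10 and -0.05. With 3 pools per group, such correlations cannot show whether pools of the same number share anything more than the number. Mutant pool 3 correlated best with control pool 2 (0.16). With the replicate block, 1138 genes were called in all, 2 members higher (0 lower) and 5 pathway genes higher (1 lower). The block also moved single calls: Scube3 (adjusted p = 0.0229), Dcn (0.033), Pecam1 (0.0429) and Cdh5 (0.0436) were called higher, Sox9 (0.0128) and Chga (0.0484) lower, and Lrp2 (0.0549) was not called. Shh and Ihh are limited by depth, with at most 8 reads per pool outside control pool 2.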
